A study of Mus musculus with 12 samples.

Results

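Described here are 35 genes of the extracellular matrix and of hepatic stellate cells, among 38087 genes counted in mouse liver. They were chosen by symbol, as a fixed list of collagens, laminins, proteoglycans, glycoproteins, proteases, protease inhibitors and stellate cell markers. Earlier results of these data were known when the list was chosen. Each of the 35 matched 1 row of the count table, 34 had a mean of at least 10 counts over the libraries, and the same 34 passed the filter on low counts and were tested. The one left out was Timp1, with a mean of 7.00 counts. The livers came from germ-free male C57BL/6j mice of 13 to 16 weeks, which have no microorganisms. Of the 12 libraries, 6 came from mice given recombinant human growth hormone (GH) at 50 µg per mouse beneath the skin (per injection or per day is not stated), and 6 from mice given phosphate-buffered saline (PBS); whether each library is a separate mouse is not stated. Injections in both groups were at ZT 2 and at ZT 14 on each of 5 days, where ZT counts hours from lights on, and the liver was collected at ZT 2. Human GH also binds the mouse prolactin receptor, which limits these mice as a model of GH receptor action alone.

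The matrix of a healthy liver is thin. Fibrillar collagens and proteoglycans lie around portal tracts and central veins, while the space between hepatocytes and sinusoids holds a loose, basement membrane-like meshwork of type IV collagen, laminin and perlecan. Stellate cells sit in that space, store vitamin A as retinyl esters, and in injury turn into myofibroblasts that deposit type I collagen. Endothelial cells and hepatocytes add components of their own, and the hepatocyte is a main source of fibronectin and collagen XVIII.

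After GH, the perlecan gene Hspg2 and the type IV collagen gene Col4a2 rose, the biglycan gene Bgn rose by less, and the decorin gene Dcn fell. The fold changes were 1.57, 1.43, 1.22 and 0.770 over PBS. No fibrillar collagen gene and none of the 6 stellate cell and pericyte genes passed the test. Of the 34 genes tested 3 rose and 1 fell, against 4.79% of all 14235 genes tested in either direction (2.27% higher and 2.52% lower), at an adjusted p under 0.05 in edgeR's quasi-likelihood test. The median log2 fold change of the 34 was 0.04, against 0.00 over all genes tested, and it was -0.02 under scaling by library totals without TMM. Values of the GH and PBS libraries did not overlap for 3 of the 34 genes (Hspg2, Col4a2 and Dcn), against 3.18% of all genes tested.

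Libraries held 19915346 to 23074700 counts in GH and 19523104 to 23278931 counts in PBS. Hepatocyte genes led the profiles in both groups, with albumin (Alb) at 62486 ± 6754 counts-per-million (CPM) in GH and 74870 ± 6339 CPM in PBS (SD, n = 6 each). The log2 fold change of Alb, -0.26, did not pass in edgeR (adjusted p = 0.108). Over all genes 323 were called higher and 359 lower, and with scaling by library totals the split was 211 and 658 and the median log2 fold change of all genes was -0.06. The TMM factors did not overlap between groups, with 0.959 to 0.998 in GH and 1.006 to 1.038 in PBS. The choice of scaling therefore shifts GH against PBS for every gene, and which scaling is nearer the truth was not tested. GH replicate 6 stood apart from its group, with a chi-square per degree of freedom between paired libraries of 53.2 to 75.9, against 8.95 to 25.0 among the other GH libraries. PBS replicate 5 gave 43.7 to 68.2, against 15.2 to 61.8 among the other PBS libraries. Without both, 6 of the 35 genes were called, Col4a1 and Lamc1 in addition to the 4 above. Calls over all genes rose as well, from 682 of 14235 tested to 1022 of 14238. In these bulk samples fewer cells of a type and less RNA per cell cannot be told apart.

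Levels were set against gene length, as CPM per kilobase of exon. Col18a1, whose product carries the endostatin fragment, stood highest with 152 CPM per kb in GH and 133 CPM per kb in PBS. Fn1, the fibronectin gene, followed with 99.2 CPM per kb in GH and 88.1 CPM per kb in PBS. Next came Dcn (21.2 CPM per kb in GH and 27.6 CPM per kb in PBS) and Ecm1, a secreted matrix glycoprotein gene (22.3 CPM per kb in GH and 21.5 CPM per kb in PBS). The type I collagen genes were near the bottom in both groups, with Col1a1 at 0.577 CPM per kb in GH and 0.422 CPM per kb in PBS, and Col1a2 at 0.830 CPM per kb in GH and 0.794 CPM per kb in PBS. Fbln1 was last in GH, with 0.271 CPM per kb in GH and 0.231 CPM per kb in PBS. Timp1 was last in PBS, on 7 counts there in all, with 0.664 CPM per kb in GH and 0.0602 CPM per kb in PBS.

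**Figure D1:**
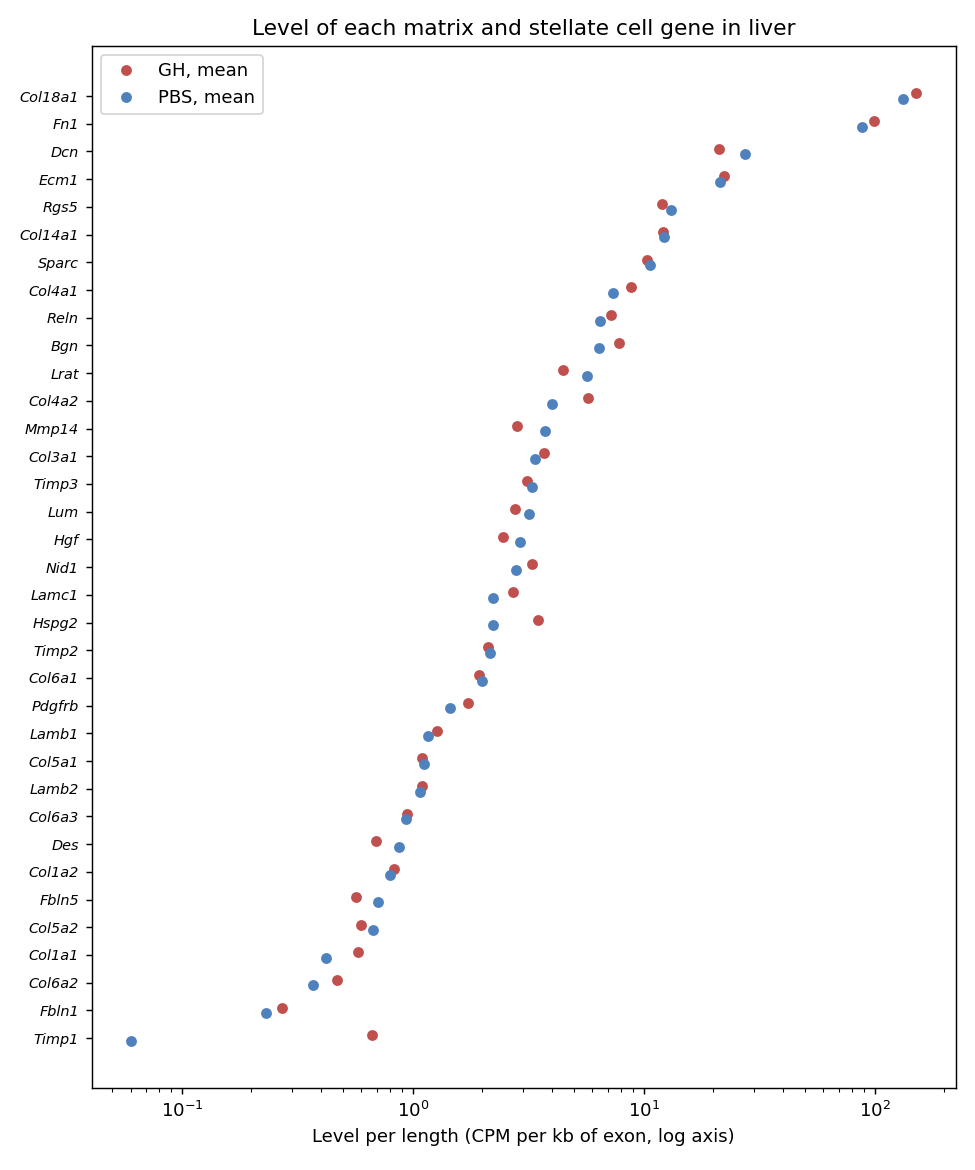
Mean level of each of the 35 genes in GH (red) and PBS (blue) livers, in CPM per kilobase of exon on a log axis, ordered by the PBS level. Col18a1 and Fn1 lie highest, at 152 and 99.2 CPM per kb in GH, and Timp1 is the gene whose 2 points stand farthest apart.

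Basement membranes are sheets of type IV collagen and laminin networks linked by nidogen and perlecan. All 8 genes of this group had a log2 fold change above 0, although Lamb2 (0.02) went to -0.04 under scaling by library totals and to -0.06 without PBS replicate 4. Of the 8, 2 rose, 0 fell and 6 did not pass, where 4.79% of all genes tested were called. An unadjusted p under 0.05 was found for 6 of the 8, against 19.0% of all genes tested. Their median log2 fold change was 0.25. DESeq2, which called more genes than edgeR, called 3 of them higher, against 506 of all 14235 genes tested.

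Hspg2 encodes perlecan, a large heparan sulfate proteoglycan that binds growth factors and ties laminin to collagen IV (chromosome 4, 137468769 to 137570630, + strand). Its lowest, median and highest levels were 47.1, 49.9 and 53.4 CPM in GH and 24.5, 30.6 and 40.3 CPM in PBS. Every GH library lay above every PBS library, and the GH libraries were closer together. The means were 49.8 ± 2.37 CPM in GH and 31.7 ± 6.24 CPM in PBS (SD, n = 6 each), a log2 fold change of 0.65 ± 0.10 (SE, adjusted p = 0.00187). It passed in 12 of 12 refits that each dropped 1 library, with log2 fold changes of 0.58 to 0.73.

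Col4a2 encodes the alpha-2 chain of type IV collagen (chromosome 8, 11312805 to 11449287, + strand). Its lowest, median and highest levels were 34.1, 37.4 and 43.3 CPM in GH and 23.0, 25.9 and 31.5 CPM in PBS, again with no overlap. The log2 fold change was 0.52 ± 0.08 (SE, n = 6 each, adjusted p = 0.00182), and it too passed in 12 of 12 such refits. Col4a1 encodes the partner chain, with which the alpha-2 chain forms the trimer found in most basement membranes. It had 59.3, 64.6 and 72.8 CPM in GH and 47.0, 55.2 and 66.3 CPM in PBS (lowest, median and highest). These groups overlapped, with 2 of 6 GH libraries above the highest PBS library, and the log2 fold change of 0.27 ± 0.08 did not pass (adjusted p = 0.0811). Without PBS replicate 5, the highest PBS library, Col4a1 passed (0.33, adjusted p = 0.0168).

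The ratio of Col4a2 to Col4a1 counts was examined after these values were seen, together with that of Col1a1 to Col1a2. It was 0.574 ± 0.0271 in GH and 0.489 ± 0.0912 in PBS (SD, n = 6 each), and the difference of 0.25 on the log2 scale did not pass (two-sided exact permutation p = 0.0519, 0.0541 adjusted over the 2 ratios; the smallest p possible is 0.00216). With 1 library dropped the difference was 0.20 to 0.34 (exact permutation p = 0.00216 to 0.0996, not adjusted), with a p under 0.05 in 1 of 12 cases, without PBS replicate 2, whose ratio of 0.655 was the highest of all 12 libraries.

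Sequence is shown at the starts of the genes that rose, from RefSeq's GRCm38.p6 promoter table, which holds 27 of the 35 genes. For Hspg2 and Bgn it is a stretch before the start, while for Col4a2, whose upstream bases lie within Col4a1, it is only the overlap of both genes. Col4a1 and Col4a2 lie head to head, and the 5′ ends of their annotations overlap by 22 bases (chr8:11312805-11312826, + strand, GRCm38.p6), the shared stretch printed first. The Hspg2 stretch covers the 216 bases before the gene's start in GENCODE (chr4:137468553-137468768, + strand). The Bgn stretch covers the 250 bases before RefSeq's start (chrX:73483351-73483600, + strand). Capitals mark the GC box GGGCGG or its reverse complement CCGCCC, a motif bound by Sp1 family factors.
Col4a1 and Col4a2 overlap: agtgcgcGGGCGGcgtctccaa
Hspg2: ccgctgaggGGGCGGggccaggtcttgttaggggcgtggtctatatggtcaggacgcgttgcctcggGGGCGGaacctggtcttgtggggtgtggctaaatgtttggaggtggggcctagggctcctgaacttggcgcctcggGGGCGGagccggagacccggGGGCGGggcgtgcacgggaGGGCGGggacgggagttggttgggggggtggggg
Bgn: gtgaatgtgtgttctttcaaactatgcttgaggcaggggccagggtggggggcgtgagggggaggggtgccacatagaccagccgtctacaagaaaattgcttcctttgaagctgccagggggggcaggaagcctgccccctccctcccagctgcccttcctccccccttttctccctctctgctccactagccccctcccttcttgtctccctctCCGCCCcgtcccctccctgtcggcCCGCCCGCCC

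The Hspg2 stretch held the GC box 5 times and the Bgn stretch 3 times, 2 of them overlapping, counting both strands. Of 32851 promoters, 27.9% held at least 1 in a window of the Hspg2 length and 32.7% in one of the Bgn length. At least 5 were held by 1.09% in the Hspg2 window, and at least 3 by 8.47% in the Bgn window. Neither stretch held TATAAA, which 9.80% and 12.4% of promoters held in windows of these lengths. Neither held TTCNNNGAA, the consensus that STAT5 binds, which 6.17% and 7.02% held. These are letter matches in short windows and not binding sites.

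The other laminin-network genes had smaller differences. Lamc1, the gamma-1 laminin chain present in most laminins, had 19.0, 22.9 and 25.3 CPM in GH and 15.4, 18.8 and 21.3 CPM in PBS (lowest, median and highest), with 4 of 6 GH libraries above the highest PBS library. Its log2 fold change of 0.28 ± 0.09 (SE, n = 6 each) did not pass in edgeR (adjusted p = 0.0803). It passed without PBS replicate 5 (adjusted p = 0.0348) and in DESeq2 (adjusted p = 0.0471). Nid1, the nidogen that bridges laminin and collagen IV, had 21.0, 22.6 and 26.4 CPM in GH and 15.1, 19.1 and 22.9 CPM in PBS, with overlap (log2 fold change 0.24 ± 0.10, adjusted p = 0.188). Col18a1 averaged 1064 ± 51.3 CPM in GH and 930 ± 119 CPM in PBS (adjusted p = 0.214), with PBS replicate 1 inside the GH range. The beta laminin chain genes Lamb1 and Lamb2 had log2 fold changes of 0.12 ± 0.10 and 0.02 ± 0.11 (adjusted p = 0.525 and 0.944).

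Markers of sinusoidal endothelium, a cell type that also makes basement membrane components, were read beside this group. Of 12 markers 1 rose and 0 fell (4.79% of all genes were called), 8 of 12 had a log2 fold change above 0, and their median was 0.12 (0.06 under scaling by library totals). An unadjusted p under 0.05 was found for 4 of 12, against 19.0% of all genes: Flt4, Stab1, Stab2 and Dnase1l3, with log2 fold changes of 0.28, 0.21, 0.28 and 0.32. Lyve1, Oit3, Mrc1 and Clec4g went the other way, with -0.37, -0.18, -0.06 and -0.05, and none of them passed. The count called was 0 to 4 when 1 library was dropped. Flt4, a VEGF receptor gene of lymphatic and sinusoidal endothelium, was the one that rose, with 34.8 ± 3.56 CPM in GH and 28.7 ± 2.00 CPM in PBS (SD, n = 6 each; adjusted p = 0.0451). The call ended in 8 of 12 refits that each dropped 1 library (adjusted p up to 0.113, without GH replicate 1) and under scaling by library totals (adjusted p = 0.102). The summed level of the 12 ran from 630 to 780 CPM in GH and from 612 to 803 CPM in PBS, and no marker was at 0. The part of these cells in the Hspg2 and Col4a2 results was not tested.

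**Figure D2:**
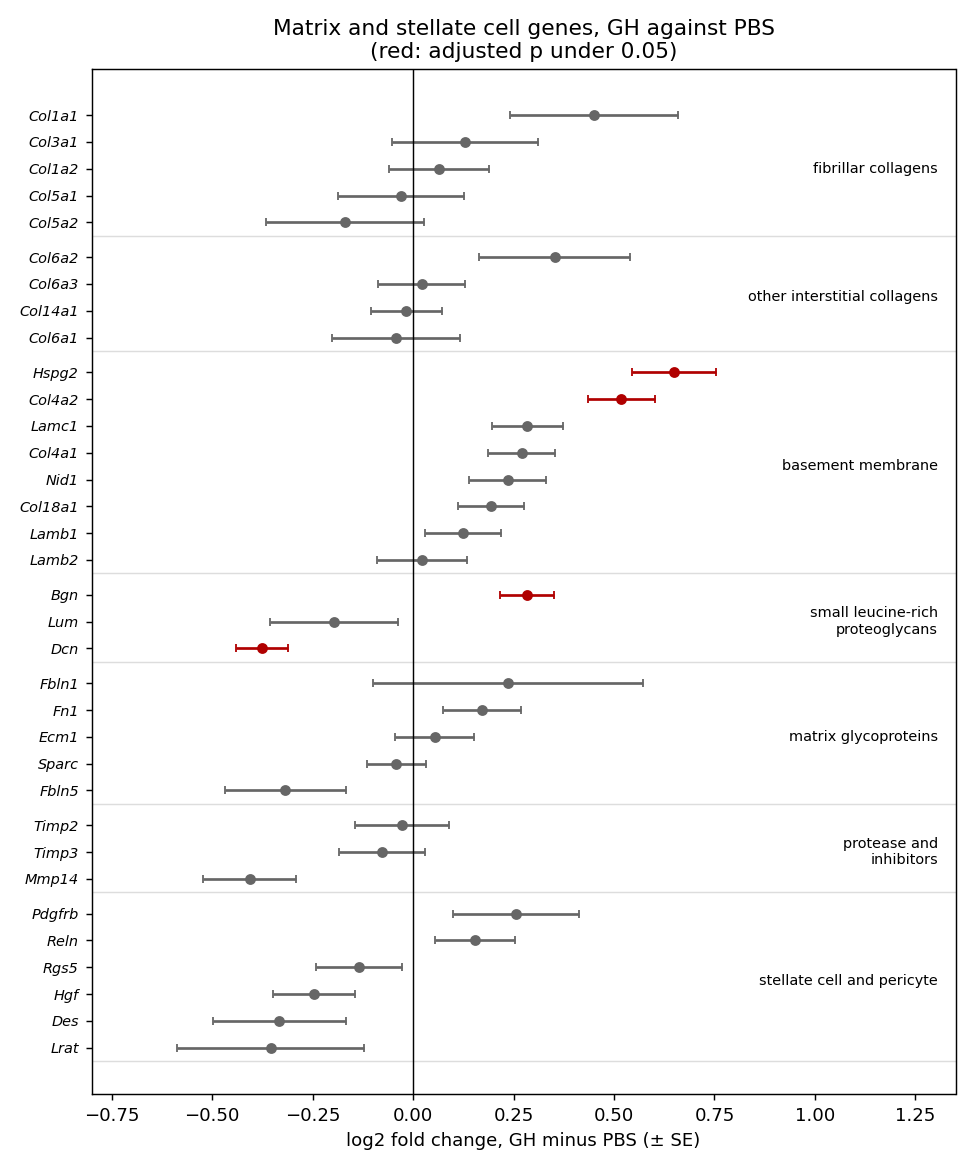
Log2 fold change (GH minus PBS) with its standard error for the 34 tested genes, grouped by role; red points had an adjusted p under 0.05 in edgeR. Hspg2 (0.65), Col4a2 (0.52) and Bgn (0.28) lie to the right of 0 and Dcn (-0.38) to the left.

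Small leucine-rich proteoglycans decorate collagen fibrils and set their spacing, and decorin and biglycan also bind TGF-beta. Of the 3 genes 1 rose, 1 fell and 1 did not pass, where 2.27% of all genes tested were called higher and 2.52% lower. Dcn, the decorin gene (chromosome 10, 97479609 to 97518143, + strand), had 114, 125 and 137 CPM in GH and 151, 160 and 173 CPM in PBS (lowest, median and highest). Each GH library was below each PBS library. The means were 124 ± 8.39 CPM in GH and 161 ± 9.40 CPM in PBS (SD, n = 6 each), and the gene fell by 0.38 on the log2 scale (SE 0.06, adjusted p = 0.00296). The call held in 12 of 12 refits that each dropped 1 library, with log2 fold changes of -0.41 to -0.35.

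Bgn, the biglycan gene (chromosome X, 73483602 to 73495933, + strand), had 43.1, 48.0 and 52.0 CPM in GH and 35.2, 38.8 and 43.7 CPM in PBS. Of the GH libraries 5 lay above every PBS library, and the other was just below PBS replicate 2, the highest PBS value. Its log2 fold change was 0.28 ± 0.07 (SE, n = 6 each, adjusted p = 0.0238), but 6 of 12 refits that each dropped 1 library ended the call (GH replicates 2, 3 and 4 and PBS replicates 1, 3 and 6; highest adjusted p 0.0683, without PBS replicate 3). Scaling by library totals also ended it (0.22, adjusted p = 0.0707). Lum, the lumican gene, had 6.81 ± 1.75 CPM in GH and 7.81 ± 1.08 CPM in PBS (log2 fold change -0.20 ± 0.16, adjusted p = 0.552).

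**Figure D3:**
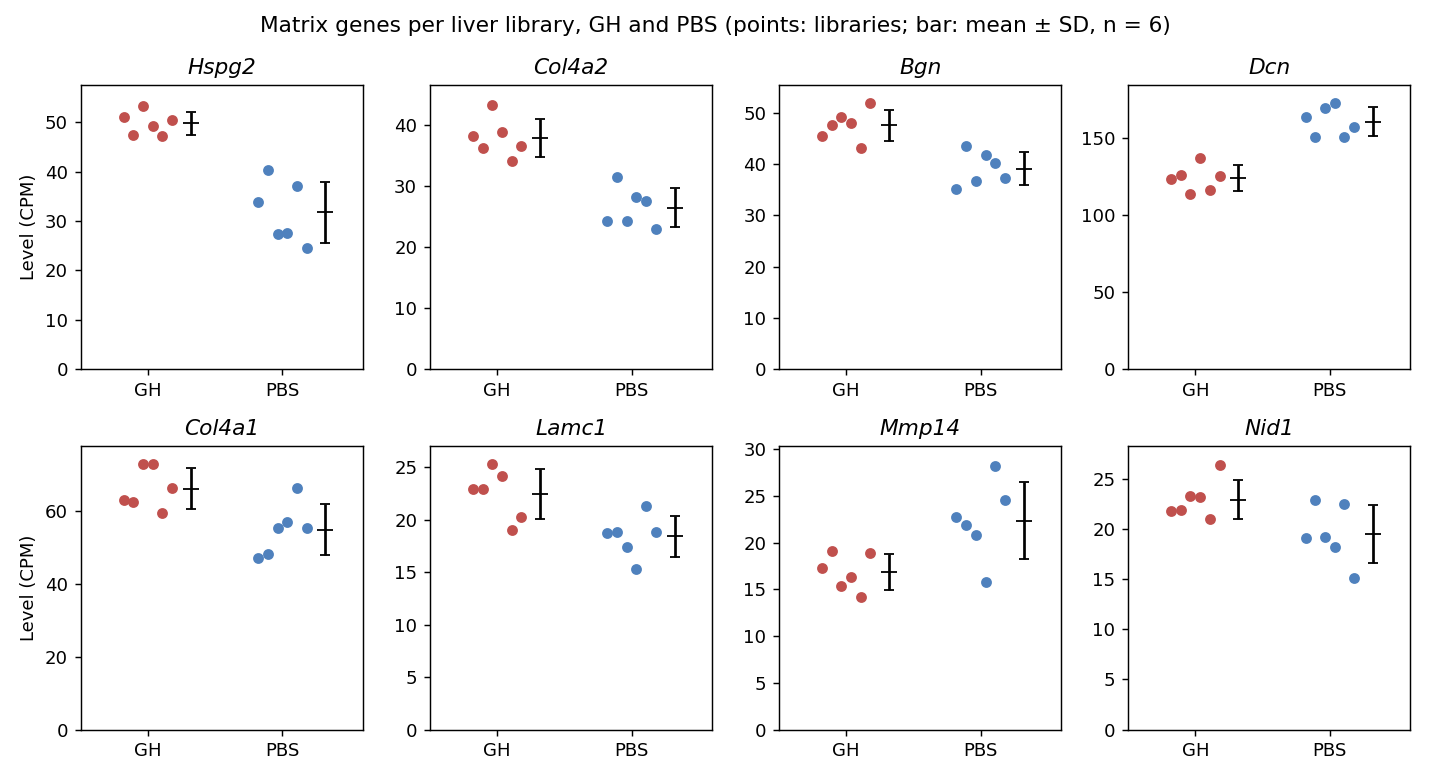
Level in CPM in each GH (left, red) and PBS (right, blue) library for the 4 genes called and the 4 with the next smallest p, with mean ± SD (n = 6 each). Groups are apart for Hspg2, Col4a2 and Dcn, and overlap for Bgn, Col4a1, Lamc1, Mmp14 and Nid1.

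Fibrillar collagens form the tensile fibrils of scar and of portal stroma. None of their 5 genes passed in edgeR or in DESeq2, where 4.79% of all genes were called in edgeR. An unadjusted p under 0.05 was found for 1 gene, against 19.0% of all genes. That gene was Col1a1, which encodes the alpha-1 chain of type I collagen. It had 2.22, 3.63 and 5.19 CPM in GH and 1.64, 2.95 and 3.53 CPM in PBS (lowest, median and highest), a log2 fold change of 0.45 ± 0.21 (SE, n = 6 each, adjusted p = 0.253). Of the GH libraries 4 exceeded the highest PBS library, on a mean of only 69.2 counts per library. Col1a2, the other chain of type I collagen, averaged 10.3 ± 1.41 CPM in GH and 9.87 ± 1.84 CPM in PBS (SD; adjusted p = 0.836). The ratio of Col1a1 to Col1a2 counts was 0.365 ± 0.0755 in GH and 0.280 ± 0.0534 in PBS (two-sided exact permutation p = 0.0541, n = 6 each). With 1 library dropped the unadjusted exact p was 0.0195 to 0.104, and it was under 0.05 without GH replicate 5, GH replicate 6 or PBS replicate 1.

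Col3a1, the type III chain of reticular fibres, averaged 36.5 ± 5.25 CPM in GH and 33.3 ± 9.78 CPM in PBS (SD, n = 6 each; log2 fold change 0.13 ± 0.18, adjusted p = 0.767). Col5a1 and Col5a2, type V chains that nucleate fibrils, had log2 fold changes of -0.03 ± 0.16 and -0.17 ± 0.20 (adjusted p = 0.946 and 0.703). Among the other interstitial collagens none of 4 passed in either tool (4.79% of all genes in edgeR). None had an unadjusted p under 0.05 (19.0% of all genes). The fibril-associated Col14a1 averaged 85.2 ± 10.4 CPM in GH and 86.2 ± 9.49 CPM in PBS (log2 fold change -0.02 ± 0.09). The type VI chain genes Col6a1, Col6a2 and Col6a3, which form beaded microfilaments, had log2 fold changes of -0.04 ± 0.16, 0.35 ± 0.19 and 0.02 ± 0.11, of which that of Col6a3 went to -0.04 under scaling by library totals.

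The interstitial collagens differed among libraries of 1 group. The median coefficient of variation of the 5 fibrillar genes was 20.3% in GH and 25.3% in PBS, against 13.0% in GH and 15.0% in PBS over all genes tested. It was 14.4% in GH and 19.0% in PBS for the 4 other interstitial collagens, and 18.6% in GH and 16.7% in PBS for the 6 stellate cell and pericyte genes. Col1a1 and Col6a2 had means of only 69.2 and 74.6 counts per library. For the 8 basement membrane genes the median coefficient of variation was 8.37% in GH and 12.7% in PBS. None of these sets was matched for level, and counting noise is larger at low counts, so the sets are not directly comparable. The same libraries stood at the ends for many of the 9 interstitial collagens. Within GH, replicate 6 was highest for 5 and replicate 5 lowest for 7 of the 9, and within PBS, replicate 5 was highest for 8 and replicate 2 lowest for 6 of the 9. Without PBS replicate 2 or PBS replicate 5 the log2 fold change of Col3a1 was 0.02 and 0.24, and in neither case did it pass.

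**Figure D4:**
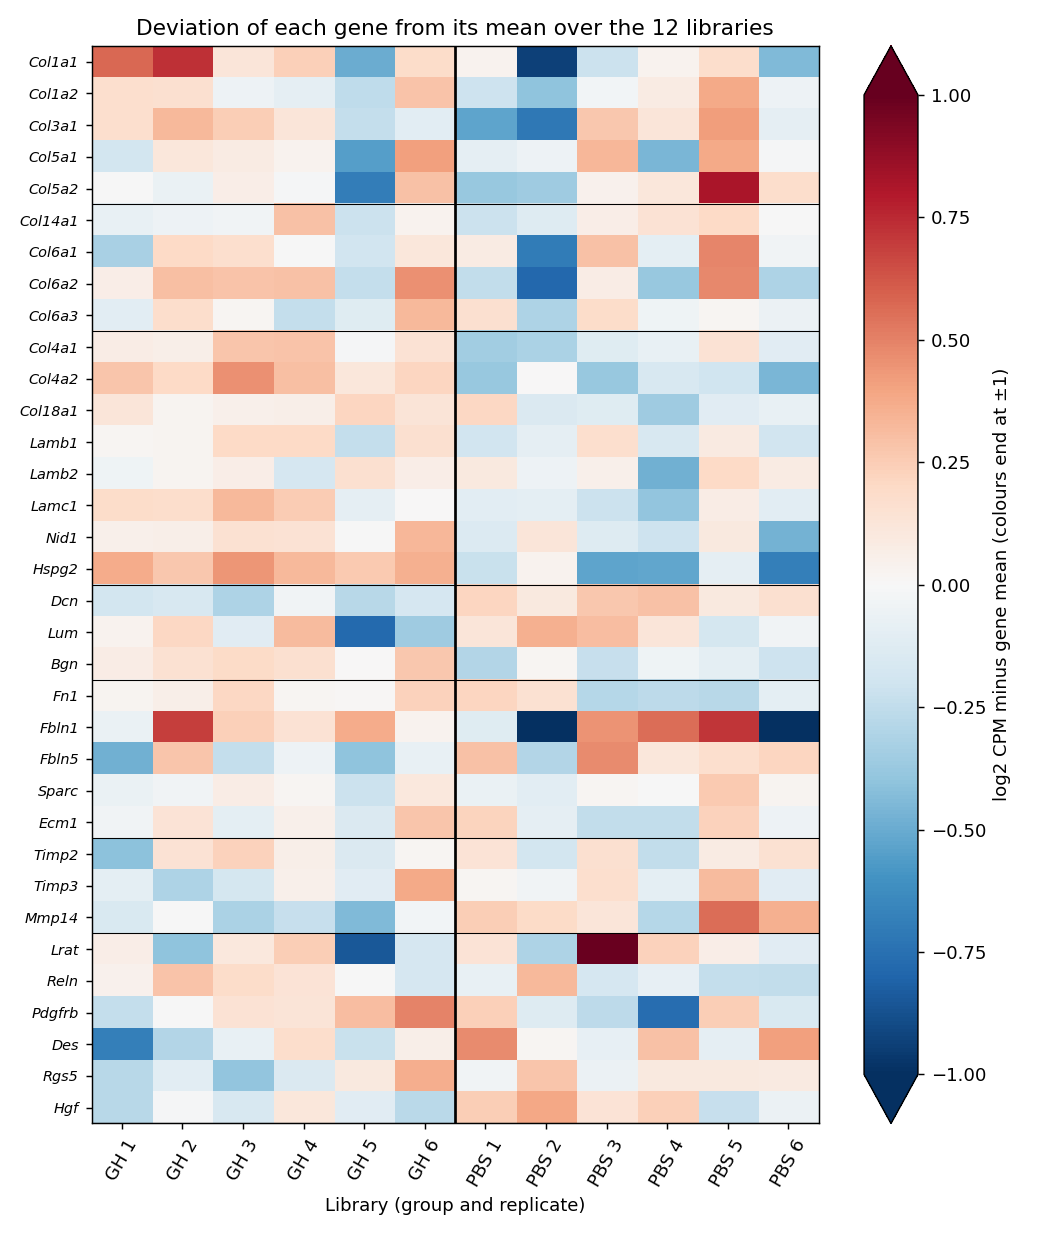
Log2 CPM of the 34 tested genes in each library minus the gene's mean over the 12 libraries; GH libraries are left and PBS libraries right of the line, and colours end at ±1. Hspg2 and Col4a2 are above their mean across GH, Dcn below it, and the interstitial collagens at the top are low in GH replicate 5 and PBS replicate 2 and high in PBS replicate 5.

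Matrix glycoproteins organise the matrix and link it to cells. None of the 5 genes passed in edgeR or DESeq2, where 4.79% of all genes were called in edgeR. None had an unadjusted p under 0.05, against 19.0% of all genes. Fn1 averaged 1159 ± 81.5 CPM in GH and 1029 ± 166 CPM in PBS (SD, n = 6 each; log2 fold change 0.17 ± 0.10, adjusted p = 0.365). All 6 GH values lay above the PBS mean, yet PBS replicates 1 and 2 lay within the GH range. Sparc, a collagen-binding protein gene, had 39.3 ± 3.07 CPM in GH and 40.4 ± 3.75 CPM in PBS, and Ecm1 had 56.3 ± 6.27 CPM in GH and 54.2 ± 8.14 CPM in PBS. The fibulin genes Fbln1 and Fbln5, whose products act in elastic fibres and basement membranes, had log2 fold changes of 0.24 ± 0.34 and -0.32 ± 0.15 (adjusted p = 0.768 and 0.265). Fbln1 had a mean of only 23.1 counts per library.

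Turnover of matrix depends on metalloproteases and their tissue inhibitors. Of the 3 such genes tested 0 passed in edgeR, where 4.79% of all genes were called. An unadjusted p under 0.05 was found for 1 (19.0% of all genes), and 1 was lower in DESeq2 (566 of all 14235 genes). That one was Mmp14, a membrane-anchored protease that cleaves collagen and activates the gelatinase MMP2. It had 14.1, 16.8 and 19.1 CPM in GH and 15.8, 22.3 and 28.2 CPM in PBS (lowest, median and highest). All 6 GH libraries were below the PBS mean, with a log2 fold change of -0.41 ± 0.12 (SE, n = 6 each, adjusted p = 0.0577). PBS replicate 4 was the 1 PBS library inside the GH range; without it Mmp14 passed (-0.49, adjusted p = 0.0106), as it did without GH replicate 6 (adjusted p = 0.0469), with no filter on low counts (0.0283), under scaling by library totals (0.0273) and in DESeq2 (0.0260). The inhibitor genes Timp2 and Timp3 had log2 fold changes of -0.03 ± 0.12 and -0.08 ± 0.11 (adjusted p = 0.932 and 0.762).

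Timp1 encodes the inhibitor that injury and cytokines induce in liver. It had 0, 13, 4, 12, 12 and 36 counts in GH replicates 1 to 6, 77 in all, and 0, 2, 1, 1, 0 and 3 counts in PBS replicates 1 to 6, 7 in all. In 5 of 6 GH libraries the level, in CPM, was above that of every PBS library, while GH replicate 1 had no count, which allows up to 0.157 CPM. When genes were not filtered, Timp1 had a log2 fold change of 3.34 ± 0.80 (SE, n = 6 each, adjusted p = 0.0336 over 27459 genes); at such counts this value depends on the fit's prior. GH replicate 6 alone held 36 of the 77 counts.

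Hepatic stellate cells and pericytes were read from 6 genes, of which none passed in edgeR or DESeq2 and 1 had an unadjusted p under 0.05. Both counts are near the shares of all genes tested, 4.79% called in edgeR and 19.0% with such an unadjusted p. Reln, the secreted glycoprotein reelin that marks stellate cells, averaged 171 ± 18.3 CPM in GH and 154 ± 24.6 CPM in PBS (SD, n = 6 each; log2 fold change 0.15 ± 0.10, adjusted p = 0.439). Lrat, the acyltransferase that makes retinyl esters, had 23.9 ± 6.04 CPM in GH and 30.6 ± 10.9 CPM in PBS (log2 fold change -0.35 ± 0.23, adjusted p = 0.461), and without PBS replicate 3, at 51.7 CPM, the log2 fold change was -0.14. Hgf, the hepatocyte growth factor made by stellate cells, had 15.8, 17.4 and 20.7 CPM in GH and 16.3, 21.8 and 25.0 CPM in PBS (lowest, median and highest). Each GH value was below the PBS mean, but the groups overlapped (log2 fold change -0.25 ± 0.10, adjusted p = 0.199). The intermediate filament gene Des, the PDGF receptor gene Pdgfrb and the pericyte gene Rgs5 had log2 fold changes of -0.33 ± 0.17, 0.26 ± 0.16 and -0.13 ± 0.11 (adjusted p = 0.291, 0.412 and 0.550).

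A further list of stellate cell markers, among them cytoglobin (Cygb), held 15 tested genes. None passed in edgeR or DESeq2 (4.79% of all genes were called in edgeR). An unadjusted p under 0.05 was found for 2, against 19.0% of all genes. The smallest p was that of the collectin gene Colec11 (log2 fold change -0.31, adjusted p = 0.175). The median was -0.10, and the summed level was 190 ± 12.3 CPM in GH and 202 ± 14.6 CPM in PBS (SD, n = 6 each). Of 7 tested genes of activated stellate cells and myofibroblasts 0 passed in either tool and 0 had an unadjusted p under 0.05. Acta2, the smooth muscle actin that marks myofibroblasts, had 2.80 ± 0.723 CPM in GH and 3.49 ± 1.75 CPM in PBS (adjusted p = 0.643). Its list summed to 45.8 ± 5.61 CPM in GH and 46.4 ± 8.74 CPM in PBS.

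**Figure D5:**
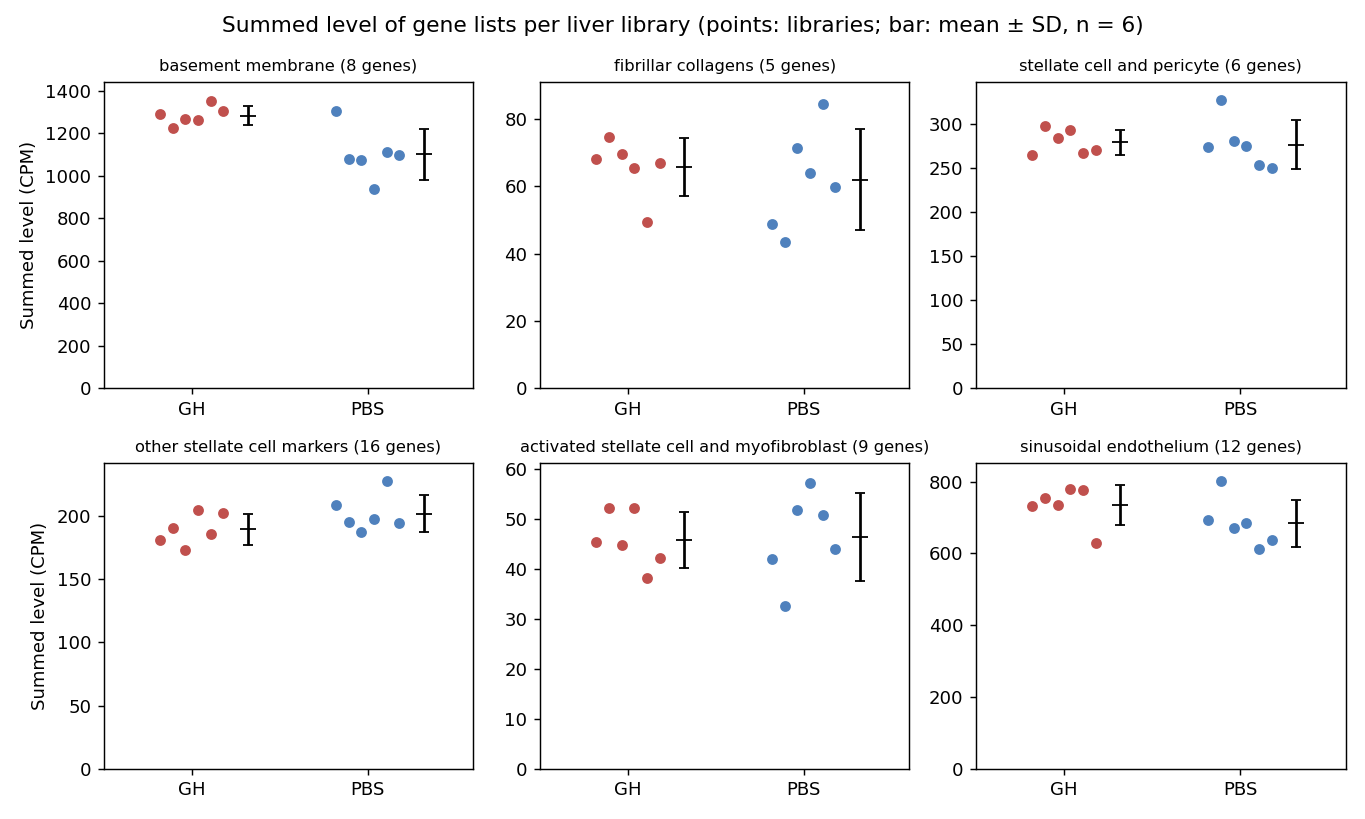
Summed level in CPM per library of 6 gene lists in GH (left, red) and PBS (right, blue), with mean ± SD (n = 6 each). The basement membrane sum, to which Col18a1 gives most, was 1283 ± 43.4 CPM in GH and 1099 ± 118 CPM in PBS. It ran from 1222 to 1349 CPM in GH and from 937 to 1303 CPM in PBS, and all 6 sums overlap between groups.

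Markers of other cell types showed no call in edgeR apart from Flt4. None of 10 vascular endothelial, 11 Kupffer cell, 8 cholangiocyte, 4 leukocyte, 8 portal fibroblast and mesothelial, 2 vascular smooth muscle and 10 hepatocyte genes passed. With an unadjusted p under 0.05 there were 1, 2, 1, 0, 1, 0 and 4 in the order of these lists. Over all genes tested 19.0% had such a p, and 4.79% were called in edgeR. DESeq2 called 1 cholangiocyte gene higher, and 1 hepatocyte gene higher and 2 lower. Of all 14235 genes it called 506 higher and 566 lower. In the same order of lists the median log2 fold changes were 0.12, -0.13, 0.12, -0.20, 0.27, -0.14 and -0.04, beside 0.12 for the sinusoidal list. The smallest p belonged to Wnt9b (log2 fold change 0.57, adjusted p = 0.244), Cd68 (-0.40, 0.130), Sox9 (0.64, 0.0892), Ptprc (-0.20, 0.400), Msln (0.93, 0.170), Lmod1 (-0.46, 0.581) and Apob (0.25, 0.0890). Summed levels of the Kupffer cell list ran from 303 to 391 CPM in GH and from 291 to 444 CPM in PBS, and those of the cholangiocyte list from 96.8 to 142 CPM in GH and from 92.8 to 126 CPM in PBS. Those of the leukocyte list ran from 14.7 to 20.4 CPM in GH and from 16.7 to 24.8 CPM in PBS, and those of the portal list from 31.3 to 37.7 CPM in GH and from 25.3 to 36.0 CPM in PBS. No marker was at 0 in all 12 libraries.

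Matrix proteins outside the 35 formed a second list, of which 38 of 45 were tested. Like the other lists here, it was chosen with earlier results of these data known, so its share called is not independent of them. Of these 6 rose and 0 fell, against 4.79% of all genes called and 2.27% higher. The median log2 fold change was 0.14, and 0.08 under scaling by library totals. Col5a3, a chain of type V collagen, had 55.6 ± 7.40 CPM in GH and 28.1 ± 7.16 CPM in PBS (SD, n = 6 each), with no overlap (log2 fold change 0.99 ± 0.14, adjusted p = 0.00149). Lama3, the laminin alpha-3 chain, had 17.4 ± 3.07 CPM in GH and 8.09 ± 2.31 CPM in PBS, also with no overlap (1.11 ± 0.18, adjusted p = 0.00301). Both passed in 12 of 12 refits that each dropped 1 library. Whether Col5a3 differed in its response from Col5a1 and Col5a2 was not tested.

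The other 4 were smaller and less stable. The laminin alpha-1 gene Lama1 rose by 0.36, the elastic-fibre glycoprotein gene Emilin2 by 0.67, the proteoglycan gene Prelp by 0.30 and the plasma adhesion protein gene Vtn, vitronectin, by 0.28 (adjusted p = 0.0258, 0.0347, 0.0366 and 0.0473). Dropping 1 library ended the call in 8, 7, 10 and 10 of 12 refits (adjusted p up to 0.0667, 0.0904, 0.0927 and 0.113), and scaling by library totals ended all 4 calls. The count of 6 was 2 without GH replicate 1, GH replicate 2, PBS replicate 4 or PBS replicate 6, and 3 without GH replicate 4, PBS replicate 1 or PBS replicate 3.

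Of 27 tested genes of collagen processing and matrix turnover 1 rose and 0 fell, against 4.79% of all genes called, and 10 had an unadjusted p under 0.05, against 19.0% of all genes. Ppib, a prolyl isomerase that assists collagen folding but serves other secreted proteins too, had 313 ± 25.5 CPM in GH and 244 ± 23.9 CPM in PBS (SD, n = 6 each; adjusted p = 0.0160), and it passed in 12 of 12 refits that each dropped 1 library. Of 21 genes of TGF-beta and PDGF signalling 1 rose and 0 fell, a share near the 4.79% of all genes. This was Smad3, a transcriptional effector of TGF-beta, with 19.2 ± 1.56 CPM in GH and 15.1 ± 1.34 CPM in PBS and no overlap (adjusted p = 0.0195; 0.0504 without GH replicate 2 and 0.0505 under scaling by library totals). Of 18 tested matrix receptor genes 0 rose and 1 fell, again near the 4.79% of all genes. Itgb8, an integrin chain that activates latent TGF-beta, had 1.09 ± 0.197 CPM in GH and 2.02 ± 0.662 CPM in PBS (adjusted p = 0.0322), a call that ended in 8 of 12 refits that each dropped 1 library (adjusted p up to 0.0824, without PBS replicate 6).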

How the data were processed

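Per the file headers and labels, the authors deposited raw counts of exonic reads per gene, without normalization, for 12 libraries of stranded, ribosomal RNA-depleted total RNA. The submitters' processing notes name STAR 2.4.0i and mm10. The counting program, annotation and strand setting: not given in the sources used here. Gene lengths and coordinates came from GENCODE M21 (36308 of 38087 identifiers found) and promoters from RefSeq (GRCm38.p6). Exons of Col3a1, Ecm1 and Hgf overlap another gene on their own strand by at least 50 bases and those of Col5a1, Nid1, Fn1, Timp3, Reln and Des one on the opposite strand, so their reads may be shared.

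Counts were fitted in R 4.3.3 with edgeR 4.0.16 (filterByExpr with a minimum count of 10, TMM, robust quasi-likelihood F test, group as the only term, Benjamini-Hochberg adjustment over 14235 genes, threshold 0.05), a step tested on simulated data. CPM are after TMM scaling. SE are the absolute log2 fold change over the square root of F. DESeq2 1.42.0, other scalings, no filter, a block by replicate number and left-out libraries were alternatives. Labels do not say that each library is a separate mouse, so the spread behind each p-value may be technical. No 2 libraries of a group agreed to within counting noise (chi-square per degree of freedom 8.95 to 75.9). Adjusted p are edgeR's unless another tool is named. Genes named outside the 35 were those called (at most 6 per list), or the one with the smallest p. All 35 genes and the lists were chosen with earlier results of these data known.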

Additional observations from a re-analysis of the deposited data

Results flagged for a closer look

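Among 70 groups of 6 values (35 genes in GH and in PBS), 4 held a library whose gap to the next, divided by the range, exceeded Dixon's 95% critical value; chance gives about 1 in 20. All 4 were the highest PBS value. Col5a2 had 10.4 CPM in PBS replicate 5, against 4.55 to 6.67 CPM in the other PBS libraries. Sparc had 47.5 CPM in PBS replicate 5, against 36.8 to 40.4 CPM in the others. Lrat had 51.7 CPM in PBS replicate 3, against 21.0 to 30.6 CPM in the others. Reln had 201 CPM in PBS replicate 2, against 135 to 153 CPM in the others.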

How the results depend on the processing

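The count of the 35 genes called, 4 in the main result, was 3 to 6 with 1 library left out, and Hspg2, Col4a2 and Dcn passed under all 18 alternatives. Bgn passed under 10 of 18. No called gene named in the text changed direction. Over all genes, 682 calls became 1072 with DESeq2, 1022 without GH replicate 6 and PBS replicate 5 together (the pair farthest from their groups in an earlier account of these data), and 434 to 854 with 1 library left out. The calls over the 4 other matrix and signalling lists, 9 in the main result, were 5 with library totals, 14 without GH replicate 6 and PBS replicate 5 together, and 3 to 12 with 1 library left out. Those over the marker lists, 1 in the main result, were 2 with library totals, 5 with DESeq2, 4 without GH replicate 6 and PBS replicate 5, and 0 to 5 with 1 library left out. With replicate number as a block, these 3 counts were 391, 3 and 0, and Bgn had an adjusted p of 0.0686. Labels say nothing of pairing between same-numbered libraries. Correlations of their deviations were -0.17 to 0.16, and 1 of 6 GH libraries correlated best with its own number. Such correlations cannot decide whether same-numbered libraries shared a batch. Counts limit Timp1, Fbln1, Des and Col1a1 most.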
